A study of Mus musculus with 48 samples.

Results

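The genes described here are 10 markers of the liver sinusoidal endothelium, namely Clec4g, Fcgr2b, Stab1, Stab2, Lyve1, Cdh5, Pecam1, Kdr, Tek and Oit3. They were chosen by name, with earlier results of these data known. The share of all probesets given beside a count of markers is therefore a description. A probeset of the array counted as one of them when its only gene symbol was 1 of the 10. All 10 genes were found, with 11 probesets of 35556, among 19938 gene symbols that had a probeset of their own. Clec4g had 2 probesets, and every other gene had 1. Expression was measured in whole liver of 48 male mice, 1 array per mouse, on the Affymetrix Mouse Gene 1.0 ST array. Mice homozygous (KO) or heterozygous (HZ) for a Wfs1 mutation and wild type (WT) mice received valproic acid (VPA, 300 mg/kg by intraperitoneal injection daily) or the saline vehicle (SAL, 10 mL/kg) for 12 weeks, with 8 mice in each of the 6 groups. Treatment began at 4 to 6 weeks of age. All mice, saline groups included, underwent a glucose tolerance test (2 g/kg) 24 hours after the last injection and were killed 24 hours later, at 16 to 18 weeks of age. The mutation carried by HZ and KO mice invalidates 2 exons of Wfs1 and is not restricted to the endothelium.

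Liver sinusoidal endothelial cells line the hepatic capillaries. They have open pores and little basement membrane, so that plasma reaches the hepatocytes directly, and they clear waste macromolecules and immune complexes from the blood through scavenger, lectin and Fc receptors. They share the adhesion molecules and growth factor receptors of other endothelium, and the scavenger receptors set them apart from the lining of larger vessels. Valproic acid is an antiepileptic drug that inhibits histone deacetylases. Wfs1 encodes wolframin, a protein of the endoplasmic reticulum membrane whose loss causes Wolfram syndrome.

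The arrays resembled each other closely, with medians of 6.90 to 7.03 on the log2 scale and correlations of 0.971 to 0.994 between pairs of arrays. The Wfs1 probeset differed little between genotypes. KO mice were 0.15 lower than WT mice on the log2 scale over both treatments (adjusted p = 0.32), and HZ mice were 0.06 lower (adjusted p = 0.992). The array has probes along the whole gene and the mutation affects 2 exons, so that the probeset did not serve as a check of the genotype labels. The labelled tissue was borne out by hepatocyte markers, whose mean level over 9 genes lay between 13.3 and 13.8 in every mouse.

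All 10 markers were well detected. Clec4g, a C-type lectin of the sinusoidal wall, had a mean of 11.43 over all mice, above 96% of probesets. Fcgr2b, the inhibitory Fc receptor for IgG, stood above 91.9% of probesets. The lowest were Lyve1 and Pecam1, at percentiles 67.9 and 68.9. These positions describe probe signal, which differs between probesets for reasons other than transcript number, and they give no order of abundance between genes. The second Clec4g probeset was dim, with a mean of 5.88, and it is annotated by 1 transcript record, against 3 for the bright one. It passed the test in none of the comparisons below, and Clec4g below means the bright probeset.

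Promoter sequences of 6 of the 10 genes (Clec4g, Fcgr2b, Kdr, Stab1, Stab2 and Tek) were held in the RefSeq table for mouse build GRCm38.p6, each running from 250 bases before the annotated start to 50 bases after it. Those printed belong to the 4 of the 6 that rose together with VPA in HZ mice, as described below. Clec4g lies on the minus strand at chr8:3720602-3720901, Fcgr2b on the minus strand at chr1:170976022-170976321, Kdr on the minus strand at chr5:75978406-75978705 and Stab2 on the minus strand at chr10:87007893-87008192. Capitals mark the letters AGGAAG or the reverse complement CTTCCT, a core recognised by ETS factors, which are known regulators of endothelial genes.
Clec4g: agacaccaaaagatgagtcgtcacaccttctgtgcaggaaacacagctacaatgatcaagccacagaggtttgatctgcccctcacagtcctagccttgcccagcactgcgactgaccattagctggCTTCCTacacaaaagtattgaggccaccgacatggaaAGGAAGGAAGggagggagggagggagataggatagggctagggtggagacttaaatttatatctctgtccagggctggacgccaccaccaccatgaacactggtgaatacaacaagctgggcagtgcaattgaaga
Fcgr2b: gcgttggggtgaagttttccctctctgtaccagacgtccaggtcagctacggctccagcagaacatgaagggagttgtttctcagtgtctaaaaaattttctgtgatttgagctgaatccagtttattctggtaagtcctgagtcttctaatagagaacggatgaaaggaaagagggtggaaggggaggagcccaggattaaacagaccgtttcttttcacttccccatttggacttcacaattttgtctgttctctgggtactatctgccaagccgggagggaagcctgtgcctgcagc
Kdr: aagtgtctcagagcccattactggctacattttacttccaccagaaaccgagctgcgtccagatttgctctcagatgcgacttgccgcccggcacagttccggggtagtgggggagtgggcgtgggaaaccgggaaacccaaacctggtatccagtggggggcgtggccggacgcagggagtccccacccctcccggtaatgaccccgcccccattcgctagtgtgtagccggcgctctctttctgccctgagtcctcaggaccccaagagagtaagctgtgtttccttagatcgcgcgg
Stab2: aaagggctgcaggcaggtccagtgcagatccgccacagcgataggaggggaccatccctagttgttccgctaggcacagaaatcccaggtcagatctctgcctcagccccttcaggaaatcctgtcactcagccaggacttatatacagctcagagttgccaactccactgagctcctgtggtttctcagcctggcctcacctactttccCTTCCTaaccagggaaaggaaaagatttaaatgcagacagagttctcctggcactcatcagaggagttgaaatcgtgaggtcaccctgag
The ETS letters occurred 3 times for Clec4g, with an overlapping pair, and once for Stab2. Neither Fcgr2b nor Kdr held them in this window. Of the 6 promoters 3 held them (Clec4g, Stab1 and Stab2), against 35.4% of 32851 mouse promoters of the same length. The letters AGATAA, bound by GATA factors (reverse complement TTATCT), were found for Tek alone, against 11.2% of all promoters. The E-box CACGTG, which reads the same on both strands and is bound by the circadian factors CLOCK and ARNTL, was in none of the 6, against 7.15% of all promoters. Both strands were searched for each motif.

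The first question was whether the markers differed between VPA and saline mice. They did so in HZ mice, where the saline group also had the lowest means of the 6 groups, as described below. In this genotype 7 of 10 markers rose with VPA (adjusted p under 0.05), while 10.5% of all probesets passed the test in either direction. All 10 differences were above 0, with a median of 0.36 on the log2 scale, against -0.03 over all probesets. In KO mice 0 of 10 passed, with 0.0112% of all probesets called, and in WT mice 0 of 10 passed, with 0.0703% of all probesets called. An unadjusted p under 0.05 was reached by 0 of 10 markers in both KO and WT mice. An ordinary linear model without limma's moderation called 0 in both as well. That model called only 4 of 35556 probesets in KO mice and 22 in WT mice. The median difference of the 10 markers was -0.0050 in KO mice and 0.07 in WT mice. In bulk liver RNA a larger number of endothelial cells and more RNA per cell cannot be told apart.

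**Figure D1:**
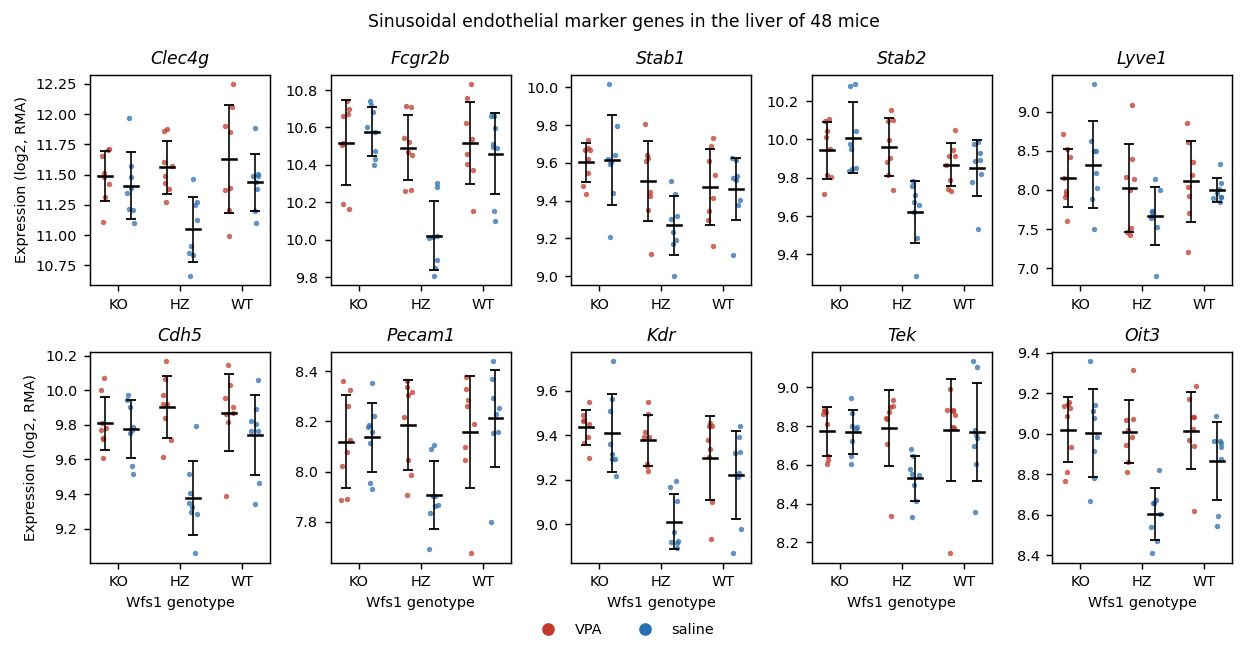
Expression of the 10 markers (log2, RMA) in each of 48 mice by Wfs1 genotype, with VPA mice in red left of saline mice in blue; black lines are means and bars are SD, n = 8 each. In every panel the lowest mean belongs to the HZ mice given saline.

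The scavenger and clearance receptors come first. Clec4g ran from 11.27 to 11.88 in HZ mice given VPA, with a median of 11.53, against 10.66 to 11.46 in HZ mice given saline, with a median of 11.01. The groups overlapped, and 5 of 8 VPA mice lay above every saline mouse. The difference was 0.51 ± 0.14 (SE), a 1.43-fold rise (adjusted p = 0.0153). Fcgr2b removes immune complexes from the blood in this endothelium. It ran from 10.26 to 10.72 with a median of 10.49 in HZ mice given VPA, against 9.81 to 10.30 with a median of 10.01 in HZ mice given saline. There was a slight overlap, with 6 of 8 VPA mice above every saline mouse. Fcgr2b rose 1.39-fold (0.47 ± 0.10, adjusted p = 0.00137).

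Stab1 and Stab2 encode stabilins, large scavenger receptors for hyaluronan, modified lipoproteins and collagen fragments. Stab2 ran from 9.74 to 10.16 with a median of 9.95 in HZ mice given VPA, against 9.29 to 9.78 with a median of 9.67 in HZ mice given saline. Only 1 VPA mouse fell within the range of the saline mice. Stab2 rose 1.26-fold (0.34 ± 0.08, adjusted p = 0.00382). For Stab1 the difference was 0.23 ± 0.09 and did not pass (adjusted p = 0.0861). Its values were 9.12 to 9.81 in HZ mice given VPA and 9.00 to 9.50 in HZ mice given saline. Without replicate 2 of the HZ mice given VPA, the Stab1 difference passed (0.29, adjusted p = 0.0375). Lyve1, a hyaluronan receptor also present in lymphatic vessels, varied most between mice, with a within-group SD of 0.45 against 0.15 to 0.29 for the other 9. Its levels were 7.42 to 9.09 in HZ mice given VPA and 6.90 to 8.14 in HZ mice given saline, and the difference of 0.36 ± 0.22 did not pass (adjusted p = 0.264).

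Among the junction proteins, Cdh5 gave the lowest adjusted p of the 10. Cdh5 encodes VE-cadherin, which holds endothelial cells together. It ran from 9.61 to 10.17 with a median of 9.92 in HZ mice given VPA, against 9.06 to 9.80 with a median of 9.33 in HZ mice given saline. The overlap came from 1 saline mouse at 9.80, and 6 of 8 VPA mice lay above it. Cdh5 rose 1.44-fold (0.52 ± 0.10, adjusted p = 0.000433). Pecam1, the adhesion molecule CD31, was 7.91 to 8.36 with a median of 8.26 in HZ mice given VPA, against 7.69 to 8.11 with a median of 7.88 in HZ mice given saline. The groups overlapped, with 5 of 8 VPA mice above every saline mouse. The rise of 1.21-fold (0.28 ± 0.09, adjusted p = 0.0369) was the weakest of those that passed. It was lost without any 1 of replicates 1, 3, 4, 6 or 8 of the HZ mice given VPA, or replicates 1, 4, 5, 7 or 8 of the HZ mice given saline, with adjusted p of 0.0546 to 0.0865.

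Kdr is the main VEGF receptor of endothelium. It was the marker whose HZ groups did not overlap, at 9.24 to 9.55 with a median of 9.39 in HZ mice given VPA, against 8.90 to 9.19 with a median of 8.94 in HZ mice given saline. Each of the 8 VPA mice exceeded every saline mouse. Kdr rose 1.29-fold (0.37 ± 0.08, adjusted p = 0.00181). Tek, the angiopoietin receptor TIE2, was 8.33 to 8.93 in HZ mice given VPA and 8.33 to 8.68 in HZ mice given saline. Of the VPA mice 7 of 8 lay above every saline mouse and replicate 5 lay near the bottom of their range. The Tek difference of 0.26 ± 0.09 did not pass (adjusted p = 0.0628). It passed without replicate 5 of the HZ mice given VPA (0.33, adjusted p = 0.0164), and also without replicate 7 of the WT mice given VPA (adjusted p = 0.0295) or replicate 1 of the WT mice given saline (adjusted p = 0.0495), which enter through the shared estimate of spread. Oit3 encodes a secreted protein with a zona pellucida domain. It ran from 8.81 to 9.31 with a median of 9.00 in HZ mice given VPA, against 8.41 to 8.82 with a median of 8.63 in HZ mice given saline. The ranges touched at their edge, with 7 of 8 VPA mice above every saline mouse. Oit3 rose 1.32-fold (0.41 ± 0.09, adjusted p = 0.00233).

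**Figure D2:**
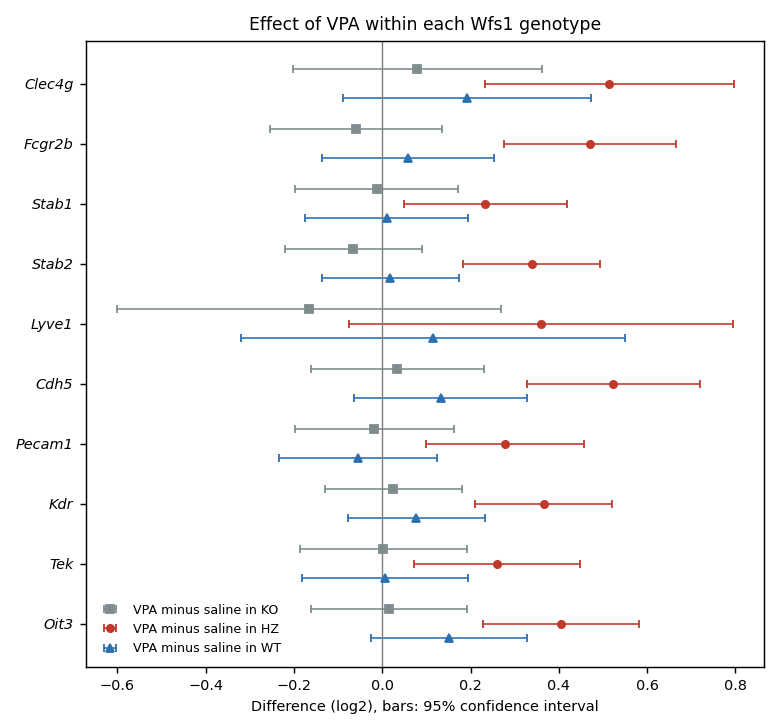
Difference between VPA and saline mice (log2) for each marker within KO (grey squares), HZ (red circles) and WT (blue triangles) mice; points are limma estimates and bars 95% confidence intervals. The HZ estimates lie between 0.23 and 0.52, and the KO and WT intervals all include 0.

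Over the 3 genotypes 4 of 10 markers rose with VPA, while 8.61% of all probesets passed the test. These were Cdh5 (0.23 ± 0.06, adjusted p = 0.00747), Oit3 (0.19 ± 0.05, adjusted p = 0.0135), Kdr (0.16 ± 0.04, adjusted p = 0.022) and Clec4g (0.26 ± 0.08, adjusted p = 0.0341). The median over the 10 was 0.13, against -0.02 over all probesets. The Clec4g call was lost without any 1 of replicates 2, 3 or 4 of the WT mice given VPA, replicate 3 of the KO mice given VPA, replicate 1 of the WT mice given saline or replicate 5 of the HZ mice given saline (adjusted p 0.0507 to 0.0548). Fcgr2b was just outside (0.16 ± 0.06, adjusted p = 0.0671). It passed without any 1 of replicate 7 of the WT mice, replicate 5 of the HZ mice or replicates 6 or 7 of the KO mice given VPA, or replicate 2 of the WT mice or replicate 6 of the HZ mice given saline (adjusted p 0.0315 to 0.0495). It also passed with arrays centred on their median (0.18, adjusted p = 0.0469). With the clock index described below as a covariate its estimate changed sign (-0.07, adjusted p = 0.91).

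Whether the effect of VPA differed between genotypes was tested directly. By limma's F test of the interaction 0 of 10 markers passed, with 0.0816% of all probesets called. At an unadjusted p under 0.05 there were 6 of 10, against 7.89% of all probesets. The ordinary linear model called 0 markers, and 22 of 35556 probesets. Fcgr2b gave the lowest adjusted p, 0.177. The effect in KO minus that in HZ mice was below 0 for all 10 markers, with 0 passing and 0.214% of all probesets called. At an unadjusted p under 0.05 there were 7 of 10, against 11% of all probesets. The effect differed most for Fcgr2b (-0.53 ± 0.14, adjusted p = 0.0791). The effect in HZ minus that in WT mice was above 0 for all 10, with 0 passing and 0% of all probesets called (lowest adjusted p = 0.51). Here 6 of 10 had an unadjusted p under 0.05, against 7.75% of all probesets. For KO minus WT, 0 of 10 passed and 0% of all probesets were called, and 0 of 10 had an unadjusted p under 0.05, against 2.74% of all probesets. The ordinary linear model called 0 markers in each of these. Of 35556 probesets it called 68 for KO minus HZ, 0 for HZ minus WT and 0 for KO minus WT. With array weights, however, 3 markers passed for the effect in KO minus that in HZ mice, and 1 passed the interaction test. The 3 were Fcgr2b (-0.56, adjusted p = 0.0212), Stab2 (-0.43, adjusted p = 0.0319) and Cdh5 (-0.50, adjusted p = 0.0407). Calls over the whole array rose too. Of 35556 probesets array weights called 317 for KO minus HZ, against 76 in the main fit, and 133 for the interaction, against 29. Over probesets with 1 gene symbol, Fcgr2b passed for KO minus HZ (adjusted p = 0.0476), with 143 of 21789 probesets called. Whether the effect differed between KO and HZ mice thus depended on these settings for the 3 markers. All of these contrasts share the HZ groups or the WT groups.

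The second question was how the genotypes differed. Among mice given saline the markers were lowest in HZ mice. Fcgr2b fell in HZ mice relative to WT mice, the 1 of 10 markers to pass, while 0.304% of all probesets passed. It ran from 9.81 to 10.30 with a median of 10.01 in HZ mice given saline, against 10.10 to 10.66 with a median of 10.50 in WT mice given saline. The groups overlapped, and 6 of 8 HZ mice lay below every WT mouse. The difference was -0.44 ± 0.10 (adjusted p = 0.0273). All 10 markers had a difference below 0, with a median of -0.28 against 0.02 over all probesets, and 9 had an unadjusted p under 0.05, against 10.7% of all probesets. The Fcgr2b call depended on single mice. It was lost without any 1 of replicates 3, 4, 5 or 8 of the HZ mice or replicates 2, 4, 5, 6 or 7 of the WT mice given saline (adjusted p 0.0514 to 0.0837). Without replicate 1 of the WT mice given saline, Cdh5 (-0.42, adjusted p = 0.0336) and Pecam1 (-0.36, adjusted p = 0.0428) passed too, and without replicate 1 of the HZ mice Cdh5 passed (-0.42, adjusted p = 0.0366).

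In the saline groups KO mice exceeded HZ mice for all 10 markers. This contrast was added after the values had been seen. Of the 10 markers 6 were higher in KO mice, while 1.39% of all probesets passed, and the median of the 10 was 0.39, against -0.01 over all probesets. Fcgr2b ran from 10.40 to 10.74 with a median of 10.59 in KO mice given saline, against 9.81 to 10.30 with a median of 10.01 in HZ mice given saline. Kdr ran from 9.22 to 9.73 with a median of 9.34 in KO mice, against 8.90 to 9.19 with a median of 8.94 in HZ mice. Stab2 ran from 9.84 to 10.29 with a median of 9.96 in KO mice, against 9.29 to 9.78 with a median of 9.67 in HZ mice. For these 3 receptors each of the 8 KO mice exceeded every HZ mouse.

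The differences were 0.56 ± 0.10 for Fcgr2b (adjusted p = 0.000643), 0.40 ± 0.08 for Kdr (adjusted p = 0.00193) and 0.39 ± 0.08 for Stab2 (adjusted p = 0.00258). Oit3 (0.40 ± 0.09, adjusted p = 0.00703), Cdh5 (0.40 ± 0.10, adjusted p = 0.0203) and Stab1 (0.34 ± 0.09, adjusted p = 0.0402) were higher as well, with overlapping groups. Lyve1 had the largest difference but the widest spread (0.66 ± 0.22, adjusted p = 0.126), and it passed without replicate 1 of the KO mice given saline (0.78, adjusted p = 0.0459). The Stab1 call was lost without any 1 of replicates 1, 2, 4, 5 or 8 of the KO mice or 3, 4, 5, 6 or 7 of the HZ mice given saline (adjusted p 0.0507 to 0.14), and the Cdh5 call without replicates 4 or 5 of the KO mice or 5 of the HZ mice (adjusted p 0.0543 to 0.0677). When only the 16 arrays of both groups entered the fit, 3 of the 6 remained called, and Stab1, Stab2 and Cdh5 did not (adjusted p 0.0509 to 0.129). This comparison uses the same HZ mice as the VPA effect in HZ mice, so the 2 are not independent.

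**Figure D3:**
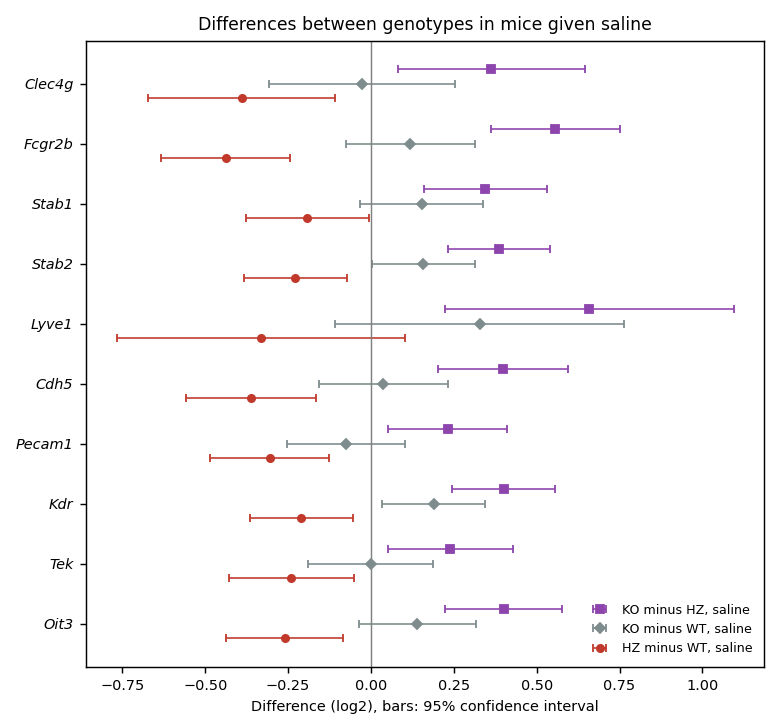
Differences between genotypes (log2) among mice given saline, for KO minus HZ (purple squares), KO minus WT (grey diamonds) and HZ minus WT (red circles); points are limma estimates and bars 95% confidence intervals. All 10 KO minus HZ estimates are above 0 and all 10 HZ minus WT estimates below 0.

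KO and WT mice differed little. Over both treatments 0 of 10 markers passed, while 2.94% of all probesets did. Kdr came closest, at 0.16 ± 0.05 (adjusted p = 0.101). Among saline mice 0 of 10 passed for KO against WT, with 0.79% of all probesets called, and among VPA mice 0 of 10, with 0.405% of all probesets called. An unadjusted p under 0.05 was seen for 3 markers over both treatments, against 13.6% of all probesets, for 2 among saline mice, against 9.25%, and for 0 among VPA mice, against 7.91%. The ordinary linear model called 0 markers in each. Of 35556 probesets it called 986 over both treatments, 256 among saline mice and 115 among VPA mice. Over both treatments HZ against WT gave 0 of 10, with 0.00281% of all probesets called, and 5 of 10 at an unadjusted p under 0.05, against 5.4% of all probesets. Within VPA mice HZ against WT gave 0 of 10 and KO against HZ 0 of 10, with 0.00281% and 0.298% of all probesets called, and none had an unadjusted p under 0.05. The ordinary linear model called 0 markers here too. Of 35556 probesets it called 1 for HZ against WT over both treatments. Within VPA mice it called 1 for HZ against WT and 102 for KO against HZ. Over both treatments KO exceeded HZ mice for 2 of 10, Fcgr2b (0.29 ± 0.07, adjusted p = 0.0134) and Kdr (0.23 ± 0.05, adjusted p = 0.0152), while 1.44% of all probesets passed. In this comparison 3 other markers passed without 1 mouse, namely Stab1 without replicate 6 of the KO mice given saline (0.25, adjusted p = 0.0237) or replicate 4 of the HZ mice given VPA (0.24, adjusted p = 0.038), Oit3 without replicate 1 of the KO mice given saline (0.23, adjusted p = 0.034) or replicate 1 of the HZ mice given VPA (0.23, adjusted p = 0.0465) and Stab2 without replicate 6 of the KO mice given VPA (0.20, adjusted p = 0.0436).

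HZ mice given saline had the lowest mean of the 6 groups for all 10 markers. The Oit3 means were 9.02 ± 0.16 in KO mice given VPA, 9.00 ± 0.22 in KO mice given saline, 9.01 ± 0.15 in HZ mice given VPA, 8.60 ± 0.13 in HZ mice given saline, 9.01 ± 0.19 in WT mice given VPA and 8.86 ± 0.19 in WT mice given saline (SD, n = 8 each). All but the HZ mice given saline lay within 1 SD of each other. For Kdr the corresponding means were 9.44 ± 0.08, 9.41 ± 0.17, 9.38 ± 0.11, 9.01 ± 0.12, 9.30 ± 0.19 and 9.22 ± 0.20 in the same order of groups. Averaged over the 10 markers, the level in a mouse ran from 9.30 to 9.65 in HZ mice given VPA and from 8.93 to 9.24 in HZ mice given saline.

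Other genes of the endothelium were examined as lists, which were also chosen with earlier results of these data known. The counts below are read against the 10.5% of all probesets that passed for VPA in HZ mice. Of 20 further genes of the sinusoidal endothelium, 8 rose with VPA in HZ mice and none fell, with a median of 0.18. Bmp2, a ligand through which this endothelium induces the iron hormone hepcidin in hepatocytes, rose by 0.66 ± 0.11 (adjusted p = 6.21e-05). Ehd3, an endocytic trafficking protein, rose by 0.55 (adjusted p = 0.00768), the semaphorin receptor Plxnc1 by 0.40 (adjusted p = 0.0116) and the adhesion molecule Cd300lg by 0.37 (adjusted p = 0.00338). In saline mice 5 of the 20 were higher in KO than in HZ mice, where 1.39% of all probesets passed. Of 24 genes shared by all endothelium, 8 rose with VPA in HZ mice and none fell, with a median of 0.14, including Cd93 (0.54, adjusted p = 0.000324), the sialomucin Emcn (0.48, adjusted p = 0.02) and the sphingosine 1-phosphate receptor S1pr1 (0.32, adjusted p = 0.0173). Nos3, the endothelial nitric oxide synthase, went the other way. It fell with VPA over the 3 genotypes (-0.14 ± 0.04, adjusted p = 0.0187), did not pass in HZ mice (-0.07, adjusted p = 0.508) and was higher in KO than in WT mice over both treatments (0.21 ± 0.05, adjusted p = 0.0082). Of 15 genes typical of larger vessels and continuous capillaries 1 rose and 1 fell. No difference between these lists was tested.

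Ligands and receptors of the VEGF and angiopoietin systems gave 2 of 14 that rose with VPA in HZ mice, a share near that of all probesets. In KO against WT mice over both treatments, Nrp1, a co-receptor for VEGF, fell (-0.52 ± 0.11, adjusted p = 0.00224), while Vegfa (0.24 ± 0.05, adjusted p = 0.00363) and Vegfb (0.26 ± 0.07, adjusted p = 0.023) rose. In the same comparison the receptor Kdr did not pass. Of 17 measured genes of the scavenger and Fc receptor families outside the 10 markers, 5 rose with VPA in HZ mice. Over the 3 genotypes 4 of the 17 rose, where 8.61% of all probesets passed. Among them were Fcer1g, the signalling chain of activating Fc receptors (0.48 ± 0.13, adjusted p = 0.0174), and Clec4n, the fungal lectin receptor dectin-2 (0.38 ± 0.08, adjusted p = 0.00171). The others were Fcgr1, the high-affinity IgG receptor (0.18 ± 0.05, adjusted p = 0.0137), and Cd36, a fatty acid and lipoprotein receptor (0.62 ± 0.17, adjusted p = 0.0163). Cd36 was not among the 5 that rose in HZ mice (0.35, adjusted p = 0.429). In KO against WT mice Colec12, a scavenger receptor of the collectin family, fell (-0.39 ± 0.09, adjusted p = 0.00418).

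Markers of Kupffer cells, the resident macrophages of the sinusoid, also rose with VPA in HZ mice, and those of stellate cells did so in part. Of 13 Kupffer cell genes, 9 rose with VPA in HZ mice and none fell, with a median of 0.75. Their mean level ran from 8.76 to 9.30 in HZ mice given VPA and from 8.06 to 8.86 in HZ mice given saline. Cd5l, a protein secreted by macrophages, rose by 0.86 (adjusted p = 0.00303), the folate receptor Folr2 by 0.75 (adjusted p = 0.00839), the lysosomal protein Cd68 by 0.75 (adjusted p = 0.0112) and Csf1r, the receptor for macrophage colony-stimulating factor, by 0.62 (adjusted p = 0.00411). Between KO and HZ mice given saline 0 of the 13 passed in limma, although all 13 differences were above 0, with a median of 0.31. Of 12 stellate cell genes 4 rose with VPA in HZ mice and none fell, with 7 of 12 differences above 0. Over the 3 genotypes, where 8.61% of all probesets passed, 7 of the 13 Kupffer cell genes and 3 of the 12 stellate cell genes rose. Of the 12, Colec11, a soluble collectin, fell (-0.29 ± 0.08, adjusted p = 0.0169). In HZ mice the mean level of the 12 ran from 8.77 to 9.03 with VPA and from 8.61 to 8.83 with saline. Of the measured genes, 0 of 9 lymphocyte markers and 1 of 9 hepatocyte markers rose there. Of 5 cholangiocyte genes 1 rose, Sox9 (0.65, adjusted p = 0.000235), and 1 fell. Of 5 genes of erythroid cells and platelets 1 fell and 0 rose, and 0 of 6 neutrophil genes passed. Over the 3 genotypes 2 hepatocyte genes fell, Pck1 (-0.72 ± 0.15, adjusted p = 0.0022) and Tat (-0.18 ± 0.06, adjusted p = 0.0396). The part of these cells in the endothelial differences was not tested.

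**Figure D4:**
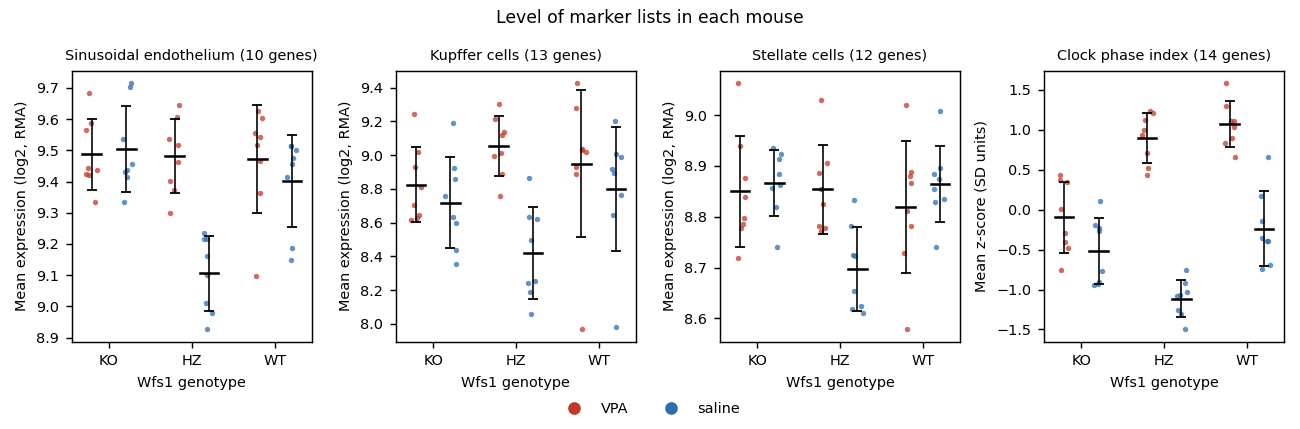
Mean level of 3 marker lists (log2, RMA) and the clock phase index (SD units) in each mouse by genotype, with VPA mice in red left of saline mice in blue; black lines are means and bars are SD, n = 8 each. HZ mice given saline have the lowest mean in all 4 panels, and their clock index does not overlap that of HZ mice given VPA.

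Genes of the circadian clock also differed between the HZ groups. Some of them passed with VPA in WT mice and for KO against WT mice over both treatments. Whether clock genes and markers differed in these comparisons was not tested. An index of clock phase was the mean z-score over 14 clock and clock output genes, with those of the opposite phase turned in sign. The 14 genes were listed with earlier results of these data known, so a separation of VPA from saline mice by the index is no independent result. The index was 0.90 ± 0.31 in HZ mice given VPA and -1.11 ± 0.23 in HZ mice given saline (SD, n = 8 each), without overlap. It was -0.10 ± 0.45 in KO mice given VPA and -0.52 ± 0.42 in KO mice given saline, against 1.07 ± 0.29 in WT mice given VPA and -0.24 ± 0.46 in WT mice given saline. With this index as a covariate, 0 of 10 markers and 0 of 35556 probesets passed for VPA in HZ mice. The standard errors of the markers were 1.86 to 1.97 times as large. Since the index separates the HZ groups without overlap, this fit cannot tell clock phase from VPA there. The estimate stayed near its former size for Cdh5 (0.48), Kdr (0.42), Oit3 (0.41), Stab2 (0.34) and Pecam1 (0.23). It was larger for Clec4g (0.74 ± 0.27) and Stab1 (0.41 ± 0.18). Smaller estimates were those of Lyve1 (0.25 ± 0.43), Tek (0.15 ± 0.18) and Fcgr2b (0.10 ± 0.18, against 0.47 without the index). With errors of this size these shifts are a description, and no shift was tested. For KO against HZ mice given saline 4 of the 6 calls remained with the index, those of Kdr, Stab2, Fcgr2b and Oit3 (adjusted p 0.00954 to 0.0401). Of all 35556 probesets 205 passed there with the index, against 496 without it. The part of clock phase in this difference was not tested. In WT mice 2 of 4 clock genes with the sign of Arntl rose and 4 of 10 of the opposite phase fell with VPA, and 7 of those 10 were higher in KO than in WT mice over both treatments. The labels give no hour of death.

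Apart from the group means, the markers varied together from mouse to mouse. Of 45 pairs of markers 42 had a correlation above 0 over 48 mice after group means were removed, with a median of 0.427, and 14 reached 0.5. The closest pair were the 2 stabilins, at r = 0.783 (Spearman rho 0.752, and r = 0.77 without the 2 most extreme mice). Pecam1 with Tek had r = 0.709 (rho 0.565, and 0.558 without 2 mice) and Cdh5 with Oit3 r = 0.707 (rho 0.683, and 0.687 without 2 mice). The lowest was Stab1 with Pecam1, at -0.121. Oit3 followed the mean of the other 9 most closely (r = 0.792) and Lyve1 least (r = 0.292). The probesets outside the list most like the mean of the 10 were Emcn (r = 0.76), Ifi30 (0.753), Ptprb (0.749), Flt1 (0.729) and Plpp1 (0.725). Emcn, Ptprb and Flt1 are endothelial membrane proteins, and Ifi30 is a lysosomal reductase of antigen-presenting cells. These values share the array of each mouse and are given as a description.

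**Figure D5:**
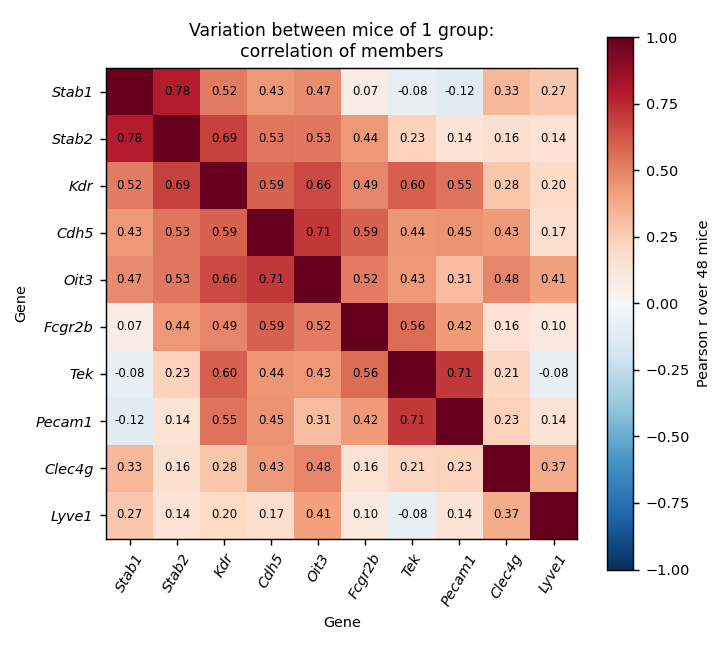
Pearson correlation between markers over 48 mice after removal of the 6 group means, with the colour scale from -1 (blue) to 1 (red). The highest value is 0.78 for Stab1 with Stab2 and the lowest is -0.12 for Stab1 with Pecam1.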

How the data were processed

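Total RNA from snap-frozen liver was hybridised to Affymetrix Mouse Gene 1.0 ST arrays, 1 per mouse. The authors deposited log2 expression values computed by RMA (background correction, quantile normalization and summary over the probes of a probeset), using Affymetrix Expression Console 1.1.2800.28061 per the submitters' processing notes. No further normalization or filter was applied. Of 35556 probesets 21789 had 1 gene symbol, 1621 several and 12146 none in the platform annotation used here. A gene with several probesets was represented by the brightest.

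A mean for each of the 6 groups was fitted with limma 3.58.1 (R 4.3.3) over all 48 arrays, following the two-way design of the study, with 42 residual degrees of freedom before moderation. Contrasts were tested two-sided with eBayes, the interaction by an F test, with Benjamini-Hochberg adjustment over all 35556 probesets. A result passed at an adjusted p under 0.05. The number of arrays limits the precision, and p-values weigh a difference of group means against the spread between mice within groups. KO against HZ mice within saline and within VPA were added after the values had been seen. The fit was tested on simulated data.

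The 10 markers and the other lists were chosen with earlier results of these data known. Genes of other lists were named by a rule, at most 4 per list with the smallest adjusted p among those that passed for VPA against saline over the 3 genotypes, and likewise for KO against WT. The 5 probesets most like the markers were also named. Labels give no batch. Same-numbered mice were not taken as pairs, since the labels state no pairing. Of 120 pairs of same-numbered mice 53 had residuals correlated by over 0.1 (mean 0.0546). Mice of different numbers were not compared, so these values do not settle whether mice of the same number share an effect. Alternatives were array weights, trended and robust moderation, an ordinary linear model, median centring, filters on low probesets and on symbols, a replicate block, the clock index, a stricter threshold, fits on the compared arrays only and leaving out each of 48 arrays. Figures were drawn with matplotlib.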

Additional observations from a re-analysis of the deposited data

Results flagged for a closer look

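In 66 combinations of a probeset and a group, the lowest or highest mouse was checked against the other 7 with Dixon's test, which chance flags in about 1 in 20 groups, and 6 were flagged, each for a low value. Replicate 7 of the WT mice given VPA lay far below its group for 3 genes, at 8.15 for Tek (others 8.79 to 8.99), 9.39 for Cdh5 (others 9.82 to 10.15) and 7.68 for Pecam1 (others 8.05 to 8.38). Replicate 5 of the HZ mice given VPA was at 8.33 for Tek (others 8.71 to 8.93). Among WT mice given saline, replicate 1 was at 7.80 for Pecam1 (others 8.15 to 8.44) and replicate 8 at 9.53 for Stab2 (others 9.78 to 9.99).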

How the results depend on the processing

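Counts are of the 10 markers that passed. Trended and robust moderation, the ordinary linear model, median centring and the filter on low probesets moved no count by over 1.5 times. With array weights, HZ against WT in saline gave 3, the VPA effect in KO minus that in HZ gave 3 and the interaction 1. The probesets called in these numbered 364, 317 and 133 of 35556, against 108, 76 and 29 in the main fit. For VPA in HZ mice they numbered 6754, against 3726. With probesets of 1 symbol only, the VPA effect in KO minus HZ gave 1 (Fcgr2b), with 143 of 21789 probesets called. With the clock index, VPA over 3 genotypes, VPA in HZ mice and HZ against WT in saline gave 0. Of 35556 probesets 0, 0 and 1 passed in these. The estimate for VPA over 3 genotypes turned in sign for Pck1 (0.28), Tat (0.25) and S1pr1 (-0.039), and among the markers for Fcgr2b (-0.07), which had not passed. Clock turned too (-0.0085), but as 1 of the 14 genes of the index it was partly adjusted for itself. At an adjusted p under 0.01, VPA over 3 genotypes gave 1, HZ against WT in saline 0 and KO against HZ over both treatments 0. With only the arrays compared, HZ against WT in saline gave 0 and KO against HZ in saline 3. Leaving out 1 array gave 3 to 5 for VPA over 3 genotypes, 6 to 8 for VPA in HZ mice, 0 to 3 for HZ against WT in saline, 2 to 3 for KO against HZ over both treatments, 4 to 6 for KO against HZ in saline and 0 elsewhere. The replicate block added Tek for VPA in HZ mice (0.26, adjusted p = 0.0403) and Stab1 for KO against HZ over both treatments (0.22, adjusted p = 0.0402) and ended no marker's call. With it the probesets called for VPA in HZ mice numbered 4933, against 3726, and over the 3 genotypes 4004, against 3062. The labels do not state that numbers pair the mice. Causes were not tested. The hour of death is unknown. The clock index separates the HZ groups fully, so a fit with it cannot tell clock phase from VPA in HZ mice.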
